A study of Mus musculus with 6 samples.

Results

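The enteric nervous system was represented by 8 genes, the glial genes S100b, Sox10 and Gfap, the receptor gene Ret, and the neuronal genes Elavl4, Tubb3, Uchl1 and Vip. They were chosen by name and found in the count tables through their Ensembl identifiers, 8 of 46078 identifiers in all. Gene counts came from RNA sequencing of small intestinal adenomas of mice that carry ApcMin, a nonsense allele of the tumor suppressor gene Apc that gives them many intestinal polyps. The knockout group had the genotype miR-34a/b/c-/-;ApcMin/+ and its comparison group the genotype miR-34a/b/c+/+;ApcMin/+, here called wild-type, so that both groups carry ApcMin. All mice were of strain C57BL6/SV129 and 18 weeks old. Each group held 3 libraries, and each library was a pool of 3 tumors of 1 mouse, so the mouse is the replicate. The labels name no Cre or promoter that would limit the deletion to a cell type, and the RNA came from whole adenomas, with no sorting of cells named. A gene of nerve or glia is therefore read here as a small share of the RNA of a mixed tissue, in which fewer cells of a type and less RNA per cell cannot be told apart.

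The enteric nervous system is the network of neurons and glia in the wall of the gut that drives its movement, secretion and blood flow. Its nerve cell bodies lie in ganglia between the muscle layers and beneath the mucosa, while nerve fibers and glia also reach the mucosa around the crypts. All of it derives from neural crest cells, which enter the gut under the control of the receptor RET, its ligand GDNF and endothelin 3. Glia are recognised by the calcium-binding protein S100B, the transcription factor SOX10 and the intermediate filament GFAP. Neurons are recognised by the RNA-binding protein HuD (Elavl4), the tubulin chain TUBB3 and the ubiquitin hydrolase UCHL1, also known as PGP9.5. VIP is a relaxing and secretion-stimulating peptide of enteric neurons. Outside the nervous system, RET is also made by some epithelial and innate lymphoid cells of the mouse gut, and UCHL1 by endocrine cells.

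The deleted microRNAs act by pairing of their seed, bases 2 to 8, with the 3′ untranslated region (UTR) of a messenger RNA. Their mature sequences (RefSeq, GRCm38.p6) are shown because the seed fixes which letters were searched in the 8 genes, and capitals mark the seed GGCAGUG that both share. miR-34a lies on chromosome 4, 150068473 to 150068494 on the plus strand, and miR-34b on chromosome 9, 51103610 to 51103632 on the minus strand. miR-34c is named only.
mmu-miR-34a-5p: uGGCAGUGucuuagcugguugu
mmu-miR-34b-5p: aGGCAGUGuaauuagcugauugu

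The matching letters CACTGCC, CACTGCCA and ACTGCCA were searched on the transcribed strand of the 3′ UTRs of GENCODE M21, where CACTGCCA holds both of the others. In the longest annotated 3′ UTR, 1 of the 8 genes held a match, against 3348 of 14685 tested genes with a 3′ UTR (22.8%). That gene was Ret, whose match begins at base 1339 of a 3′ UTR of 2108 bases. Over all annotated 3′ UTRs, Tubb3 held a match as well, at base 89 of a shorter 3′ UTR of 333 bases that differs from the longest one of 391 bases. The share of tested genes with a match in any of their 3′ UTRs was 23.9%. These stretches, with the match in capitals, are shown because they are the only ones found among the 8 genes. The first lies at chr6:118152497-118152525 on the minus strand and the second at chr8:123421760-123421788 on the plus strand (mm10).
Ret: cattaccaaaaCACTGCCtggtcttcaga
Tubb3: ctagctactgaCACTGCCcccagctttgc

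The letters were not found in the annotated 3′ UTRs of S100b (1091 bases), Sox10 (1030 bases), Gfap (longest 1341 bases), Elavl4 (longest 2610 bases), Uchl1 (306 bases) and Vip (851 bases). A match is a description of letters and shows no binding. Neither of the genes with a match passed the test between genotypes.

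Library totals lay between 26375035 and 38354355 counts in knockout adenomas and between 31340618 and 37396224 counts in wild-type adenomas. The precursor genes Mir34a, Mir34b and Mir34c had 0 counts in all 6 libraries, so they check the labels of neither group. Knockout and wild-type adenomas were compared with edgeR's quasi-likelihood test over the 17254 genes that passed a filter on low counts, with p-values adjusted by the Benjamini-Hochberg method. At an adjusted p below 0.05 the test called 16 genes (0.0927% of those tested). Levels are given as CPM (counts in 1000000), on library sizes corrected by the TMM method, in the order of replicates 1, 2 and 3.

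The 8 genes together took between 0.00305% and 0.00452% of the counts of a library, and all 8 passed the filter. None was called, against 0.0927% of all genes, of which 0.0406% were higher and 0.0522% lower in knockout adenomas. Among the 8, only S100b had groups that did not overlap (1 gene), against 11.2% of all genes, or 5.34% that were lower in each knockout library as S100b was. Unadjusted p was below 0.05 for the same 1 of 8, against 1010 of all genes (5.85%). DESeq2 called S100b and none of the other 7, against 0.638% of all genes (110), and limma-voom called none of the 8, against 0.122% of all genes. The log2 fold change, knockout over wild-type, was above 0 for 4 of the 8, against 51.1% of all genes, and its median was 0.12, against 0.01 over all genes. Behind this middle value lay different patterns: the 3 glial genes and Ret had values below 0, and the 4 other neuronal genes had values above 0.

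Per length of exon, the 8 genes spanned a wide range. Ret had the highest mean over the 6 libraries, 3.65 CPM per kilobase (range 2.61 to 4.86). Uchl1 followed with 2.89 (1.02 to 5.96), Vip with 1.63 (0.536 to 2.81), S100b with 1.23 (0.679 to 1.85) and Tubb3 with 0.984 (0.421 to 1.53). The scarce genes were Gfap with 0.142 CPM per kilobase (0.0368 to 0.224), Sox10 with 0.0960 (0.0347 to 0.144) and Elavl4 with 0.0420 (0.0175 to 0.0654). Only Tubb3 and Gfap, among neighbours in this order, had ranges that did not overlap. Uchl1 lay above Vip in 6 of 6 libraries, whereas S100b lay above Tubb3 in 3 of 6, the wild-type ones. The defining glial markers Sox10 and Gfap were thus present at 3 to 30 counts per library, and the neuronal marker Elavl4 at 3 to 12 counts.

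**Figure D1:**
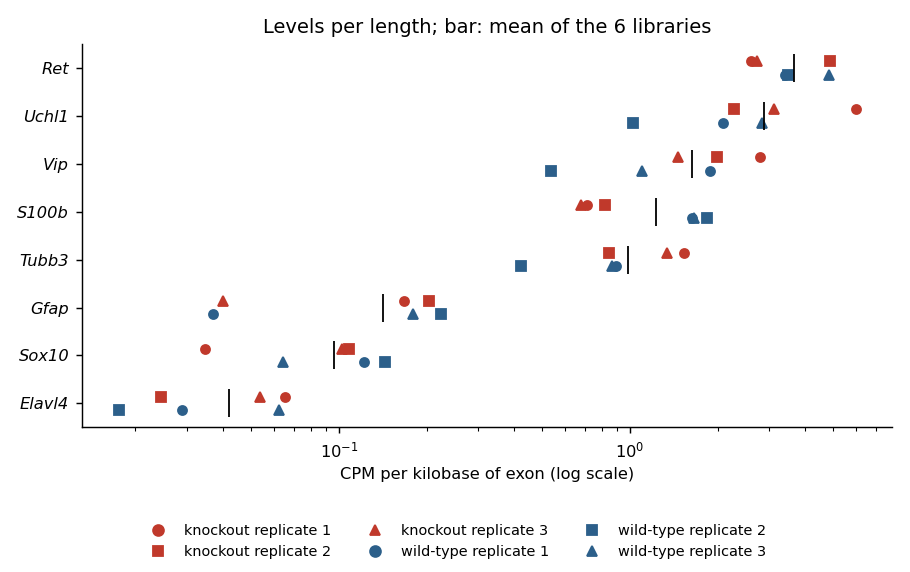
Level of each of the 8 genes per kilobase of exon (CPM per kilobase, log scale), with 1 point per library, knockout and wild-type in different colors, and a bar at the mean of the 6 libraries. Ret, Uchl1, Vip, S100b and Tubb3 lie between 0.421 and 5.96, and Gfap, Sox10 and Elavl4 lie at or below 0.224.

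S100b, which encodes a calcium-binding protein of glia (ENSMUSG00000033208, mm10 chromosome 10, 76253853 to 76261159, plus strand, protein coding), had 30, 37 and 42 counts in knockout adenomas, against 78, 87 and 88 counts in wild-type adenomas. These are 1.06, 1.22 and 1.01 CPM in knockout adenomas, against 2.42, 2.74 and 2.46 CPM in wild-type adenomas. All 3 knockout libraries were low and all 3 wild-type libraries were high, with little spread inside either group. The means were 1.10 ± 0.112 CPM in knockout adenomas, against 2.54 ± 0.171 CPM in wild-type adenomas (SD, n = 3 each), a ratio of 0.432. The log2 fold change was -1.21 ± 0.26 (SE), with an adjusted p of 0.582 (edgeR), and S100b ranked 60 of 17254 genes by p. DESeq2 gave -1.22 with an adjusted p of 0.0115. The difference therefore passed the threshold with DESeq2 and missed it with edgeR. Over 15 alternative settings the log2 fold change stayed between -1.30 and -1.15.

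The S100b locus overlaps Dip2a on the opposite strand, a gene with 10635 counts over the 6 libraries. Their annotated exons do not overlap, and Dip2a had a log2 fold change of 0.13 ± 0.14. The strand setting of the counting was not given in the sources used here. Within 250 kilobases of S100b, 9 other genes were tested, and the log2 fold changes lay between -0.51 and 0.25. The groups overlapped for each of the 9, and none was called (smallest adjusted p = 0.801, edgeR). No other transcript of the annotation matched S100b at 95% identity over 100 bases.

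Sox10, a transcription factor that maintains glia and neural crest progenitors (ENSMUSG00000033006, chromosome 15, 79154913 to 79164490, minus strand), had 3, 10 and 13 counts in knockout adenomas, against 12, 14 and 7 counts in wild-type adenomas. The levels were 0.106, 0.330 and 0.312 CPM in knockout adenomas, against 0.373, 0.441 and 0.196 CPM in wild-type adenomas. The groups overlapped, with knockout replicate 1 lowest and wild-type replicate 2 highest. The 3 counts of knockout replicate 1 have an exact 95% counting interval from 0.0218 to 0.309 CPM, which takes in 0.196 CPM of wild-type replicate 3 and lies below the other 4 values. The log2 fold change was -0.40 ± 0.55 (adjusted p = 0.878, edgeR).

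Gfap, the intermediate filament of glia (ENSMUSG00000020932, chromosome 11, 102887336 to 102900912, minus strand), had 20, 26 and 7 counts in knockout adenomas, against 5, 30 and 27 counts in wild-type adenomas. The levels were 0.705, 0.859 and 0.168 CPM in knockout adenomas, against 0.155, 0.944 and 0.756 CPM in wild-type adenomas. Each group held 1 low library, knockout replicate 3 and wild-type replicate 1, and 2 high ones. The exact counting interval was 0.0675 to 0.346 CPM in knockout replicate 3, below that of 0.637 to 1.35 CPM in wild-type replicate 2, so the libraries differed by more than counting error. The log2 fold change was -0.13 ± 0.77 (adjusted p = 0.976, edgeR) and 0.33 without knockout replicate 3, so its direction rested on single mice.

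Summed over the 3 glial genes, the level was 1.87, 2.41 and 1.49 CPM in knockout adenomas, against 2.95, 4.12 and 3.42 CPM in wild-type adenomas. The sum did not overlap between groups, and most of it was S100b. Pearson's r of log2 CPM over the 6 libraries was 0.43 for S100b and Sox10, 0.14 for S100b and Gfap and -0.23 for Sox10 and Gfap, which share these libraries and their low counts.

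Other genes of enteric glia lay on both sides of 0. Of 13 such genes, 9 were tested, 6 had a log2 fold change above 0 and 3 below, the median was 0.20, and none was called (0.0927% of all genes). Unadjusted p was below 0.05 for 0 of the 9 (edgeR). DESeq2 and limma-voom likewise called 0 genes of each list described here, except Rgs13 of the tuft cell list with DESeq2. The untested ones were Sox2, Cdh19, Fabp7 and Cmtm5. Col28a1, a collagen chain of peripheral glia, had 1.64 ± 0.457 CPM in knockout adenomas, against 0.969 ± 0.109 CPM in wild-type adenomas, and was higher in each knockout library than in each wild-type library (a log2 change of 0.76 ± 0.32, adjusted p = 0.793, edgeR). Scn7a, a sodium channel of glia, had a fold change on the log2 scale of 0.55 ± 0.33 (adjusted p = 0.804, edgeR). Entpd2, an ectonucleotidase, had 8.59 ± 2.63 CPM in knockout adenomas, against 11.6 ± 1.98 CPM in wild-type adenomas. It shares exon sequence with Npdc1, which had 16322 counts, so its level is uncertain.

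The summed level of the 13 genes was dominated by Erbb3, a neuregulin receptor with 204, 457 and 285 CPM in knockout adenomas, against 354, 316 and 432 CPM in wild-type adenomas, which epithelial cells also express. Without Erbb3 and Entpd2, a choice made after the values were seen, the other 11 genes summed to 21.6, 13.4 and 29.3 CPM in knockout adenomas, against 15.5, 12.3 and 15.9 CPM in wild-type adenomas. The groups overlapped, and 6 of the 7 genes tested had a log2 fold change above 0, with a median of 0.55. The 2 genes left out both lay below 0 (Erbb3 -0.22 ± 0.30 and Entpd2 -0.43 ± 0.27), so leaving them out raised the median. Among the genes kept, Lgi4 (0.92 ± 0.64) overlaps exons of Fxyd3 on the opposite strand, which had 17955 counts, so its level is uncertain. S100b stood on the opposite side of 0 from 6 of the 9 tested genes of the full list, and on the same side as Sox10 and Gfap. A difference between S100b and that list was not tested.

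Schwann cells and adipocytes, which also express S100b, were read beside it. Of 6 myelin genes of Schwann cells, 3 were above 0 and 3 below, with a median of 0.05, and the sum was 75.3 to 120 CPM in knockout adenomas, against 56.8 to 119 CPM in wild-type adenomas. Within that list Mag, a myelin adhesion protein, had 0.634, 0.693 and 0.648 CPM in knockout adenomas, against 0.342, 0.346 and 0.336 CPM in wild-type adenomas. All knockout libraries were higher (a log2 change of 0.94 ± 0.31, adjusted p = 0.793, edgeR). Mbp, the myelin basic protein, had 32.2 ± 0.852 CPM in knockout adenomas, against 40.5 ± 5.25 CPM in wild-type adenomas (a log2 change of -0.33 ± 0.13, adjusted p = 0.793, edgeR). The adipocyte genes Adipoq and Plin1, looked up after the values were seen, had 3 counts each in knockout and 0 in wild-type adenomas, and Lep had 1 count in knockout and 0 in wild-type adenomas. Cidec, a lipid droplet protein, had 51.2 ± 19.7 CPM in knockout adenomas, against 76.1 ± 16.6 CPM in wild-type adenomas (-0.57 ± 0.29 on the log2 scale, adjusted p = 0.793, edgeR). Fabp4, a fatty acid binding protein, had 15.9 ± 0.715 CPM in knockout adenomas, against 12.99 ± 6.52 CPM in wild-type adenomas. The 5 genes summed to 54.5 to 90.2 CPM in knockout adenomas, against 65.4 to 109 CPM in wild-type adenomas. Nearly all of it came from Cidec and Fabp4, whose log2 fold changes lay on opposite sides of 0 (Fabp4 0.29 ± 0.33). The sum therefore describes these 2 genes and is no measure of adipocytes. The part of these cells in the level of S100b was not tested.

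**Figure D2:**
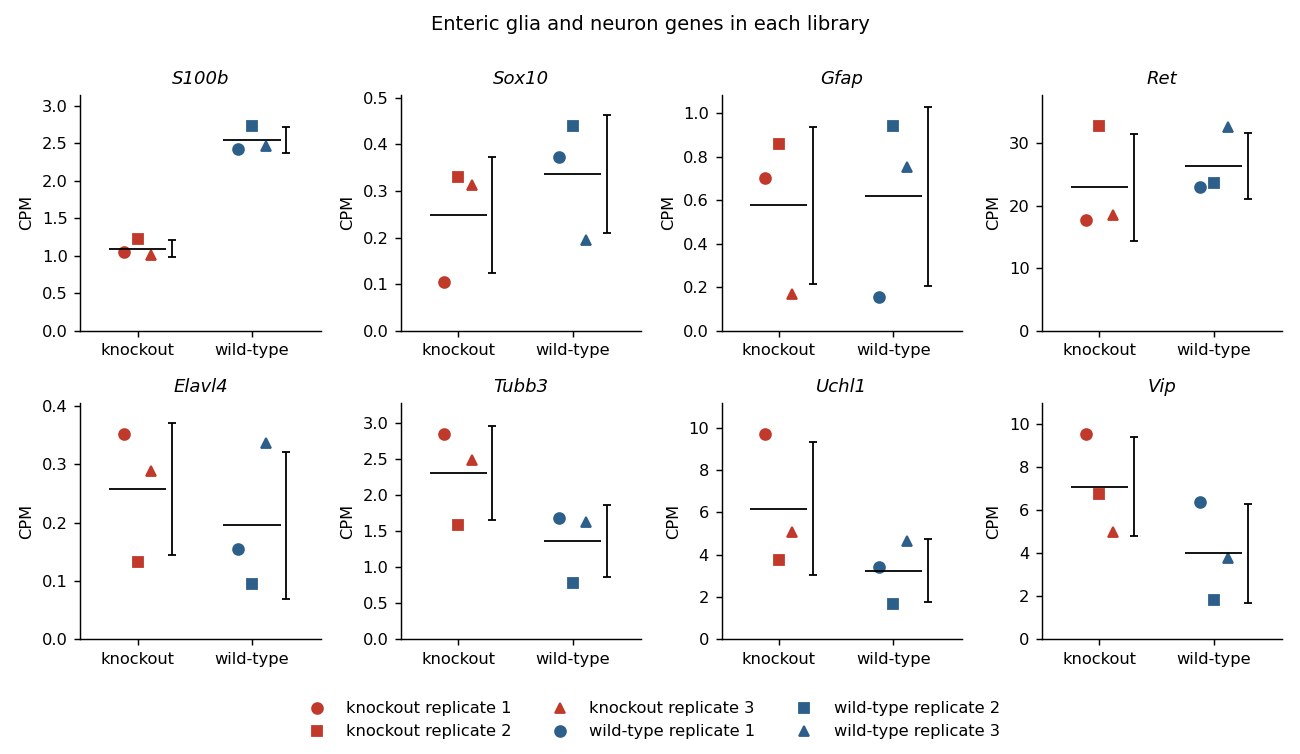
Level of each of the 8 genes (CPM, axes from 0) in the 3 knockout and the 3 wild-type libraries, with 1 symbol per replicate and 1 panel per gene. S100b lies between 1.01 and 1.22 in knockout and between 2.42 and 2.74 in wild-type adenomas, and the groups overlap in the other 7 panels.

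The neuronal genes Elavl4, Tubb3, Uchl1 and Vip shared their highest and their lowest library, while the order between them differed. All 4 were highest in knockout replicate 1 and lowest in wild-type replicate 2, the library in which S100b, Sox10 and Gfap were highest. Ret, which other cells of the gut also make, is described apart. The summed level of the 4 genes was 22.5, 12.2 and 12.8 CPM in knockout adenomas, against 11.7, 4.37 and 10.4 CPM in wild-type adenomas. With TMM scaling every knockout library was above every wild-type library in the sum, although none of the 4 genes alone was separated. Scaled by library totals alone, the sums were 24.19, 11.16 and 13.95 CPM in knockout adenomas, against 11.97, 4.15 and 9.89 CPM in wild-type adenomas. There the groups overlapped, with knockout replicate 2 below wild-type replicate 1. The group means of the log2 sum differed by 0.91 with all 6 libraries, 0.63 when knockout replicate 1 was left out and 0.47 when wild-type replicate 2 was left out.

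Elavl4, which encodes the neuronal RNA-binding protein HuD (ENSMUSG00000028546, chromosome 4, 110203722 to 110351909, minus strand), had 10, 4 and 12 counts in knockout adenomas, against 5, 3 and 12 counts in wild-type adenomas. The levels were 0.353, 0.132 and 0.288 CPM in knockout adenomas, against 0.155, 0.0944 and 0.336 CPM in wild-type adenomas. They overlapped, and the 3 counts of wild-type replicate 2 have a counting interval from 0.0195 to 0.276 CPM. The log2 fold change was 0.38 ± 0.61 (adjusted p = 0.896, edgeR), so no difference was detectable at this depth.

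Tubb3, the neuron-enriched tubulin chain (ENSMUSG00000062380, chromosome 8, 123411424 to 123422015, plus strand), had 81, 48 and 104 counts in knockout adenomas, against 54, 25 and 58 counts in wild-type adenomas. The levels were 2.86, 1.59 and 2.50 CPM in knockout adenomas, against 1.68, 0.787 and 1.62 CPM in wild-type adenomas. Knockout replicates 1 and 3 lay above all wild-type libraries and knockout replicate 2 lay among them. The means were 2.31 ± 0.655 CPM in knockout adenomas, against 1.36 ± 0.500 CPM in wild-type adenomas, with a fold change on the log2 scale of 0.76 ± 0.40 (adjusted p = 0.793, edgeR).

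Uchl1, the ubiquitin hydrolase used as a general stain of nerve (ENSMUSG00000029223, chromosome 5, 66676091 to 66687234, plus strand), had 276, 113 and 212 counts in knockout adenomas, against 110, 53 and 166 counts in wild-type adenomas. The levels were 9.73, 3.73 and 5.09 CPM in knockout adenomas, against 3.42, 1.67 and 4.65 CPM in wild-type adenomas. Knockout replicate 1 stood well above the other 5 libraries, and knockout replicate 2 lay inside the wild-type range. The log2 fold change was 0.93 ± 0.49 (adjusted p = 0.793, edgeR) and 0.43 without knockout replicate 1. An antisense transcript that overlaps Uchl1, Uchl1os, had 2 counts over the 6 libraries.

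Vip, the gene of vasoactive intestinal peptide (ENSMUSG00000019772, chromosome 10, 5639218 to 5647614, plus strand), had 271, 205 and 207 counts in knockout adenomas, against 206, 58 and 134 counts in wild-type adenomas. The levels were 9.55, 6.77 and 4.97 CPM in knockout adenomas, against 6.40, 1.83 and 3.75 CPM in wild-type adenomas. Wild-type replicate 1 lay above knockout replicate 3, and wild-type replicate 2 was far below the rest. The means were 7.10 ± 2.31 CPM in knockout adenomas, against 3.99 ± 2.30 CPM in wild-type adenomas, with a fold change on the log2 scale of 0.83 ± 0.47 (adjusted p = 0.802, edgeR). Without wild-type replicate 2 it was 0.48, and without wild-type replicate 1 it was 1.33.

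Markers of smooth muscle and of other stromal cells varied with these genes across libraries. All 6 smooth muscle genes had a log2 fold change above 0 (median 0.80), 4 of the 6 were higher in each knockout library, against 5.86% of all genes, none was called, and none was at 0. Their sum was 492, 455 and 409 CPM in knockout adenomas, against 378, 155 and 277 CPM in wild-type adenomas, again lowest in wild-type replicate 2 and highest in knockout replicate 1. Pearson's r between the sum and each gene, on the log2 scale over the 6 libraries of both groups, was 0.97 for Vip, 0.88 for Tubb3, 0.80 for Uchl1 and 0.48 for Elavl4. These points share libraries and their scaling, and r is given as a description only. Other lists gave values as high for Tubb3, Uchl1 and Elavl4. With the interstitial cells of Cajal r was 0.87 for Vip, 0.92 for Tubb3, 0.81 for Uchl1 and 0.65 for Elavl4. With fibroblasts it was 0.50 for Vip, 0.87 for Tubb3, 0.75 for Uchl1 and 0.85 for Elavl4. With the tuft cell sum, most of it from Avil, r was 0.66 for Vip, 0.87 for Tubb3, 0.72 for Uchl1 and 0.70 for Elavl4. With the enteroendocrine sum all 4 were negative (-0.90 to -0.66). The interstitial cells of Cajal, the pacemaker cells of gut muscle, gave sums of 125 to 140 CPM in knockout adenomas, against 72.4 to 126 CPM in wild-type adenomas. The fibroblast sums were 391 to 1554 CPM in knockout adenomas, against 233 to 763 CPM in wild-type adenomas.

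Divided by the smooth muscle sum, a ratio computed after the values were seen, Vip, Tubb3 and Uchl1 were close between genotypes. Per 1000 CPM of smooth muscle genes, Vip had 15.5 ± 3.67 CPM in knockout adenomas, against 14.1 ± 2.62 CPM in wild-type adenomas (SD, n = 3 each). Tubb3 had 5.13 ± 1.44 CPM in knockout adenomas, against 5.12 ± 0.717 CPM in wild-type adenomas, and Uchl1 13.5 ± 5.86 CPM in knockout adenomas, against 12.2 ± 4.07 CPM in wild-type adenomas. These differences were smaller than the spread within either group. Elavl4 had 0.571 ± 0.243 CPM in knockout adenomas, against 0.744 ± 0.418 CPM in wild-type adenomas, a ratio of 0.767. The division lowers the ratio of each gene, since the divisor was 1.67 times as high in knockout adenomas. S100b had 2.43 ± 0.269 CPM in knockout adenomas, against 10.98 ± 5.90 CPM in wild-type adenomas, a ratio of 0.222, where the undivided levels had a ratio of 0.432. For the others the divided ratio was 0.376 for Sox10, 0.405 for Gfap and 0.464 for Ret. The part of tissue makeup in these results was not tested.

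**Figure D3:**
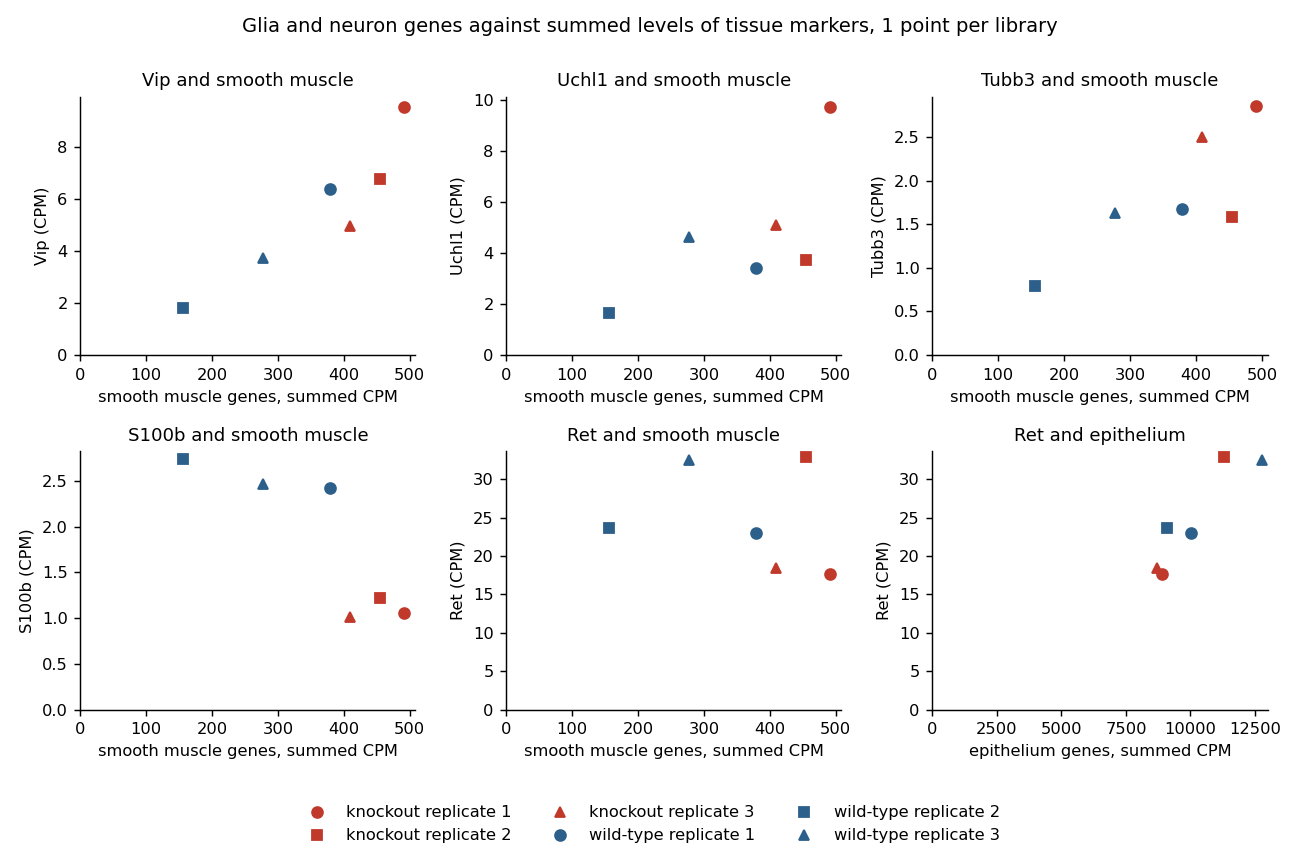
Level of Vip, Uchl1, Tubb3, S100b and Ret (CPM, vertical axes) against the summed level of 6 smooth muscle genes or 5 epithelial genes (summed CPM, horizontal axes), with 1 point per library and knockout and wild-type in different colors. Vip follows the smooth muscle sum through the libraries of both genotypes, from 1.83 CPM at a sum of 155 to 9.55 CPM at a sum of 492, while S100b splits by genotype and Ret is highest in the 2 libraries with the highest epithelial sums.

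Genes whose pattern over the 6 libraries was most like that of each of these genes were sought among 14539 genes with a mean of at least 1 CPM. For Vip they were Cnn1 (r = 0.992), Des (r = 0.988) and Jph2 (r = 0.987). Cnn1, the actin-binding protein calponin, and Des, the muscle intermediate filament desmin, belong to the smooth muscle list. For Uchl1 they were Sult4a1 (r = 0.992), Tspan4 (r = 0.988) and Kctd12 (r = 0.988), and those of Tubb3 included Gsdmc3 (r = 0.996) and Gsdmcl2 (r = 0.995). These r are among the highest of that many genes over 6 points and have no test. For S100b, whose libraries fell into separate groups, the nearest genes were Gm13443, Abhd1 and Hmga1b, and no r is given. Among themselves, Tubb3 and Uchl1 had an r of 0.94, Elavl4 and Uchl1 0.87, Tubb3 and Vip 0.84, Uchl1 and Vip 0.81, Elavl4 and Tubb3 0.80 and Elavl4 and Vip 0.46.

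Other structural and identity genes of enteric neurons leaned in the same direction as these 4. Of 19 such genes, 15 were tested (Phox2a, Elavl3, Nefm and Dcx were not), 14 had a log2 fold change above 0 and 1 below, and the median was 0.42, against 0.01 over all genes. None was called, 1 had an unadjusted p below 0.05, and 4 of the 15 were higher in each knockout library, against 5.86% of all genes. Ncam1, the neural cell adhesion molecule, had 6.06 ± 2.71 CPM in knockout adenomas, against 3.32 ± 0.198 CPM in wild-type adenomas (a log2 change of 0.87 ± 0.34). Syt1, the calcium sensor of synaptic vesicles, had 1.03 ± 0.402 CPM in knockout adenomas, against 0.544 ± 0.103 CPM in wild-type adenomas (0.91 ± 0.39). Syp, the vesicle protein synaptophysin, had 1.31 ± 0.213 CPM in knockout adenomas, against 0.879 ± 0.0968 CPM in wild-type adenomas (0.57 ± 0.29). The adjusted p was 0.793 for each of these 3 (edgeR).

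Transmitter and neuropeptide genes had a median of 0.71, with 10 of 11 tested genes above 0. None was called, 3 had an unadjusted p below 0.05, and 3 were higher in each knockout library, against 5.86% of all genes. Slc5a7, Grp, Calb1, Dbh, Nmu and Calca were not tested. Nos1, the nitric oxide synthase of inhibitory motor neurons that often also hold VIP, had 1.55, 1.68 and 1.97 CPM in knockout adenomas, against 0.683, 0.818 and 0.896 CPM in wild-type adenomas. All 3 knockout libraries were high and all 3 wild-type libraries low, with a fold change on the log2 scale of 1.12 ± 0.28 (adjusted p = 0.770, edgeR). Gal, the gene of the peptide galanin, had 1.94, 1.68 and 1.44 CPM in knockout adenomas, against 0.932, 0.283 and 0.700 CPM in wild-type adenomas. The groups did not overlap, and the log2 fold change was 1.39 ± 0.45 (adjusted p = 0.793, edgeR). Slc18a3, the vesicular transporter of acetylcholine, had 2.04, 0.660 and 1.78 CPM in knockout adenomas, against 0.342, 0.157 and 0.672 CPM in wild-type adenomas. It lies within the span of Chat, whose exons it does not overlap, and knockout replicate 2 lay just inside the wild-type range (a log2 change of 1.92 ± 0.62, adjusted p = 0.793, edgeR). Tac1, the gene of substance P, was the gene below 0, with 4.23 ± 1.26 CPM in knockout adenomas, against 5.69 ± 1.12 CPM in wild-type adenomas.

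The receptors of VIP and PACAP had values on both sides of 0. Vipr1, the receptor of epithelial cells, had 126.5 ± 49.1 CPM in knockout adenomas, against 142 ± 14.4 CPM in wild-type adenomas (a log2 change of -0.16 ± 0.26, adjusted p = 0.896, edgeR). Vipr2, the receptor of muscle, had 1.07 ± 0.357 CPM in knockout adenomas, against 0.795 ± 0.160 CPM in wild-type adenomas (0.43 ± 0.36, adjusted p = 0.822, edgeR). Adcyap1r1, the receptor of the related peptide PACAP, had 2.79 ± 1.04 CPM in knockout adenomas, against 2.97 ± 3.30 CPM in wild-type adenomas. The PACAP gene Adcyap1 was not tested, and the groups overlapped for the 3 others.

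Endocrine and tuft cells of the epithelium also express some neuronal genes. Of 14 enteroendocrine genes, 6 were above 0 and 8 below (median -0.12), none was called, and the sums were 102 to 163 CPM in knockout adenomas, against 116 to 208 CPM in wild-type adenomas. Wild-type replicate 2, where Elavl4, Tubb3, Uchl1 and Vip were lowest, had the highest enteroendocrine sum. The gene with the smallest p was Pyy, a hormone of endocrine cells, with 4.88 ± 3.72 CPM in knockout adenomas, against 17.6 ± 5.16 CPM in wild-type adenomas (a log2 change of -1.86 ± 0.62, adjusted p = 0.793, edgeR). Of 7 tuft cell genes, 6 were tested and all 6 were above 0 (median 0.79). Of these, 3 were higher in each knockout library, against 5.86% of all genes, and none was called (edgeR). The sums were 215 to 309 CPM in knockout adenomas, against 185 to 288 CPM in wild-type adenomas. Most of each sum was Avil, with 187 ± 43.0 CPM in knockout adenomas, against 185 ± 46.3 CPM in wild-type adenomas (a log2 change of 0.02 ± 0.24). Exons of Avil overlap Tsfm on the opposite strand, which had 6234 counts, so its level is uncertain. Rgs13, a regulator of G protein signaling, had 8.70 ± 0.443 CPM in knockout adenomas, against 3.75 ± 0.769 CPM in wild-type adenomas (1.21 ± 0.23 on the log2 scale, adjusted p = 0.429, edgeR), and passed with DESeq2. The part of these cells in the levels of the neuronal genes was not tested.

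Ret, the receptor tyrosine kinase of the GDNF family (ENSMUSG00000030110, chromosome 6, 118151748 to 118197744, minus strand), had 501, 995 and 770 counts in knockout adenomas, against 740, 751 and 1163 counts in wild-type adenomas. The levels were 17.7, 32.9 and 18.5 CPM in knockout adenomas, against 23.0, 23.6 and 32.6 CPM in wild-type adenomas. Both groups held 1 high library, knockout replicate 2 and wild-type replicate 3, and the other 4 libraries lay between 17.7 and 23.6 CPM. The means were 23.0 ± 8.55 CPM in knockout adenomas, against 26.4 ± 5.35 CPM in wild-type adenomas, with a fold change on the log2 scale of -0.20 ± 0.28 (adjusted p = 0.879, edgeR). Ret had the smallest ratio between its highest and lowest library among the 8 genes, 1.86, against 6.08 for Gfap and 5.83 for Uchl1. That ratio also takes in the difference between genotypes and counting error. Ret had 4920 counts over the 6 libraries, against 115 for Gfap. Within each group S100b spread less than Ret relative to its mean (1.10 ± 0.112 CPM in knockout adenomas and 2.54 ± 0.171 CPM in wild-type adenomas).

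The high libraries of Ret were the 2 with expression of Y-linked genes, with 5813 Y-linked counts in knockout replicate 2 and 5719 in wild-type replicate 3, against 44 to 98 in the other 4 libraries. With sex as a term in the fit no gene of the 8 was called. These 2 libraries also had the highest epithelial sums, 11280 CPM in knockout replicate 2 and 12780 CPM in wild-type replicate 3, against 8689 to 10010 CPM in the other 4. Pearson's r of Ret over the 6 libraries was 0.91 with the sum of 5 epithelial genes, 0.61 with the enteroendocrine sum and -0.22 with the smooth muscle sum. With Elavl4, Tubb3, Uchl1 and Vip it lay between -0.48 and -0.24. The genes most like it were Galns (r = 0.996), Pgm2 (r = 0.995) and Rac1 (r = 0.995). Genes of type 3 innate lymphoid cells were scarce, with 2 of 5 tested, Il22 at 2 counts and Il23r at 9 counts over all libraries. The parts of sex, epithelium and nerve in its level were not tested.

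Among the ligands, co-receptors and partner pathways of RET, 13 of 14 genes were tested (Pspn was not), 9 were above 0 and 4 below, and the median was 0.36. None was called, 3 had an unadjusted p below 0.05, and 3 were higher in each knockout library, against 5.86% of all genes. Gdnf, the ligand that guides neural crest cells into the gut, had 1.38, 1.12 and 2.54 CPM in knockout adenomas, against 0.901, 0.881 and 0.840 CPM in wild-type adenomas. Each knockout library was higher, knockout replicate 3 most of all (a log2 change of 0.95 ± 0.38, adjusted p = 0.793, edgeR). Ednrb, the receptor of endothelin 3, had 20.6, 17.7 and 38.5 CPM in knockout adenomas, against 15.2, 9.79 and 14.4 CPM in wild-type adenomas (0.96 ± 0.33, adjusted p = 0.793, edgeR). Nrg1, the growth factor of ERBB3, had 12.7 ± 5.96 CPM in knockout adenomas, against 5.02 ± 2.30 CPM in wild-type adenomas (1.34 ± 0.45, adjusted p = 0.793, edgeR). Gfra1, the co-receptor for GDNF, had 9.73, 2.25 and 11.1 CPM in knockout adenomas, against 4.35, 3.12 and 5.46 CPM in wild-type adenomas. In it, as in the fibroblast sum, knockout replicate 2 was well below the other knockout libraries.

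**Figure D4:**
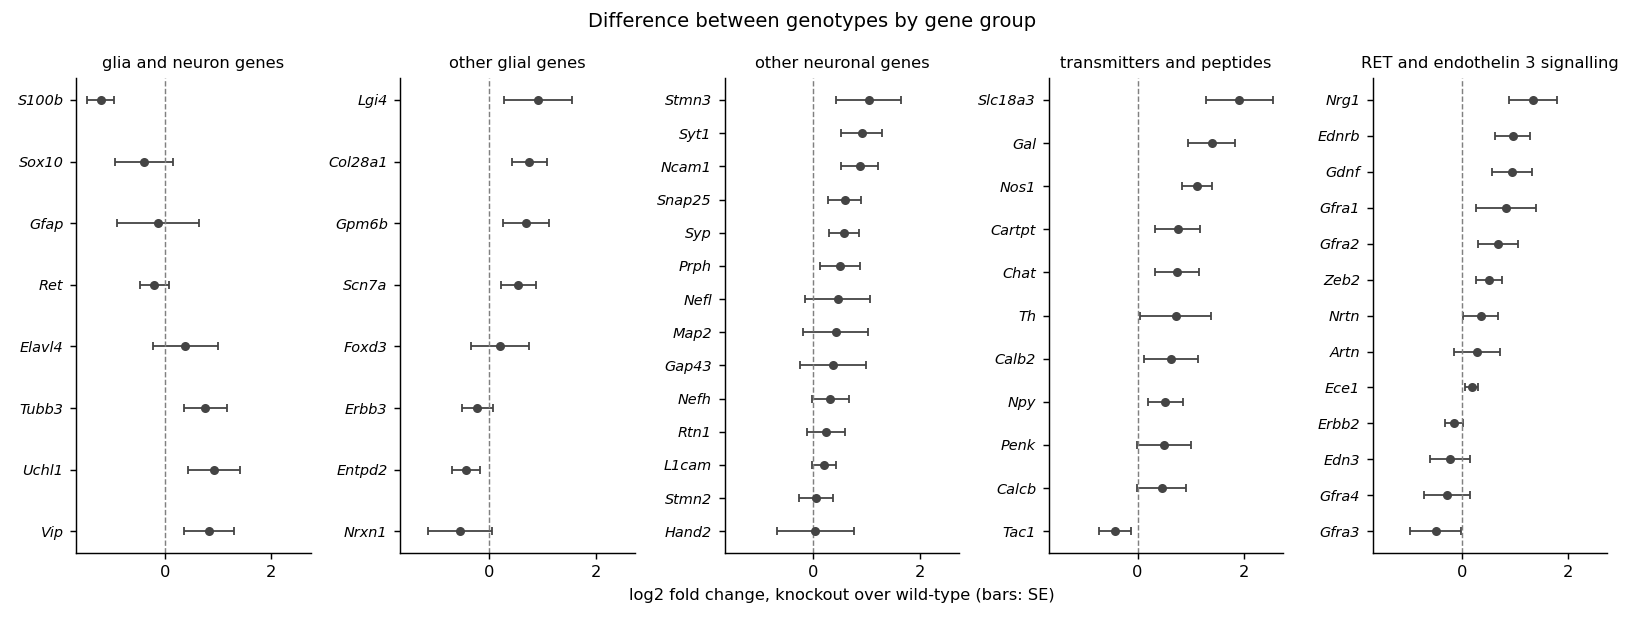
Log2 fold change, knockout over wild-type (horizontal axes, bars are SE from edgeR), of the 8 genes and of tested genes of 4 lists, with 1 panel per list. S100b has the lowest value of the first panel (-1.21), the neuronal genes drawn and 10 of 11 transmitter genes lie above 0, and no gene shown passed the threshold of 0.05.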

How the data were processed

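Whole-number counts per Ensembl gene, 1 table per library, were deposited by the authors, made with TopHat2 2.1.0, HTSeq 0.6.1 and the build mm10 per the submitters' processing notes. The strand setting, the handling of reads with several alignments and the annotation release were not given in the sources used here. For that reason some overlapping genes, but not all, are named beside the levels. Gfap also overlaps Gm26668 (48 counts, opposite strand) and Tubb3 overlaps Gm20388 (0 counts), both without shared exons. Exons of the smooth muscle gene Tagln overlap Pcsk7 (11574 counts) and those of the epithelial gene Vil1 overlap Usp37 (12487 counts), both on the opposite strand. Groups and replicate numbers came from the sample titles. The tables hold 46078 identifiers, of which 45143 matched a symbol of GENCODE M21 (GRCm38), which also gave exon lengths and 3′ UTRs. The 8 genes and all gene lists were chosen with earlier results of these data known.

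All libraries entered 1 fit with edgeR 4.0.16 in R 4.3.3 (filterByExpr, TMM, robust quasi-likelihood F-test, Benjamini-Hochberg adjustment over 17254 genes at 0.05), which was also run on simulated data with known changes. The SE was the log2 fold change divided by the root of F. CPM use TMM library sizes, and level per length is CPM per kilobase of the union of annotated exons. DESeq2 1.42.0 and limma 3.58.1 (voom) were alternatives, with other scalings and filters, a replicate block, a sex term and each mouse left out in turn. Lists were described by counts, medians and summed CPM, without a set test. From each list the 3 tested genes with the smallest p were to be named, together with the 3 genes most like each of the 8 with a mean of at least 1 CPM, by Pearson's r of log2(CPM + 0.1), and genes overlapping them. Gfra1, Erbb3, Tac1 and the adipocyte genes lie outside that rule and were chosen after their values were seen. Some genes that the rule names, or that belong to a list, are not reported here by name. Near-identical copies were sought with BLAST 2.17.0. Counting intervals are exact at 95% and cover counting error only.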

Additional observations from a re-analysis of the deposited data

How the results depend on the processing

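None of the 8 genes was called by edgeR under any scaling, filter, block, sex term or left-out mouse, or by limma-voom, and DESeq2 called 1 of them, S100b. Over all genes, 16 were called, against 110 with DESeq2 and 9 (without knockout replicate 1) to 41 (without knockout replicate 2) when a mouse was left out. The median log2 fold change of the 8 genes, 0.12, was 0.75 with a filter of at least 1 CPM in 3 libraries, which left 5 of them tested, and lay between -0.04 and 0.42 without single mice, lowest without wild-type replicate 1 and highest without wild-type replicate 3. Among single genes 1 turned sign: Gfap (-0.13) lay between -0.59 and 0.33 without single mice, at 0.33 with knockout replicate 3 left out, 0.30 with wild-type replicate 2 left out and 0.05 with wild-type replicate 3 left out. The causes were not tested. Without single mice, S100b stayed between -1.30 and -1.16, Vip between 0.48 and 1.33, Uchl1 between 0.43 and 1.28, Tubb3 between 0.49 and 0.97, Elavl4 between 0.06 and 1.02, Sox10 between -0.67 and -0.07 and Ret between -0.55 and -0.02. The adjusted p of S100b ranged from 0.0115 with DESeq2 to 1.00 without knockout replicate 3.

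Deviations from the group means correlated at 0.218, 0.273 and 0.081 between libraries of the same replicate number, and at -0.297 to 0.179 between the others. Each library correlated best with that of its own number, except knockout replicate 3, which did so with wild-type replicate 1 (0.179). The labels name no pairing, and these values do not settle it. A replicate block gave 14 called genes, none of the 8, and a median of 0.14 for them. With it the unadjusted p (edgeR) was 0.035 for Tubb3, 0.033 for Uchl1 and 0.038 for Vip, against 0.097, 0.099 and 0.12 without it. For S100b it was 0.0056, against 0.0021 without it. The lowest counts over the 6 libraries were those of Elavl4 (46), Sox10 (59) and Gfap (115).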
